A study of Mus musculus with 4 samples.

Results

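Lung macrophages were a small class of cells among sorted GFP+ cells of the mouse lung, 97 of 10077 cells in 4 single-cell RNA libraries. A cell was counted as a macrophage when it held at least 3 unique molecular identifiers (UMIs, 1 per captured transcript) of C1qa, C1qb, C1qc, Marco and Mrc1 together, at most 1 UMI of the monocyte genes Adgre4, Treml4 and Cd300e, and at least 2 UMIs of Fcer1g and Tyrobp. Sftpc, the surfactant gene of alveolar type II (AT2) cells, had to hold less than 4% of its UMIs. The 97 cells were then split into 52 cells with at least 1 UMI of Marco or Plet1, called alveolar below, and 45 cells without either, called C1q-only. The cells were chosen by the measured levels of these genes, which are therefore given as a description with no test.

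The study sorted GFP+ cells, which the labels name AT2 cells, from digested lungs of mice that all carried the Sftpc-CreER driver and the Rosa26-mTmG reporter. Controls were Cdc42flox/+ and nulls, whose AT2 cells were meant to lose Cdc42, were Cdc42flox/-. All mice had 4 doses of tamoxifen, and the labels give postnatal day 80 as the age of every group. Each genotype had a sham-treated group and a group on day 21 after PNX (pneumonectomy, removal of part of the lung, after which the remaining lung grows). The groups are called sham or PNX with the genotype before it, and every run of 4 values below gives control sham first, then control PNX, then null sham, and null PNX last. Cre in these mice is driven by Sftpc and deletes Cdc42 in AT2 cells, so macrophages were not its target. The minus allele of the nulls does not depend on Cre, so their macrophages may carry fewer working Cdc42 copies than control macrophages. Every group carried the Cre, the reporter and the tamoxifen. Each group was 1 library, how many mice it came from is not stated in the labels, and the GFP reporter itself was not analysed here.

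With 1 library a group, no comparison between groups has a replicate check, and none is tested. Levels are UMIs per 1000000 UMIs of the summed macrophages of a library (CPM), and intervals are exact 95% binomial intervals that cover counting error only. PCR, dissociation and animal-to-animal differences are outside them. In a comparison of 2 libraries a gene counts as different when it has at least 30 UMIs in both together, differs at least 2-fold and has an interval that leaves out a ratio of 1. Fewer cells of a type and less RNA per cell cannot be told apart in such sums.

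Macrophages take up particles, dying cells and surfactant in the lung, and they differ by place. Alveolar macrophages live in the airspace, depend on GM-CSF and PPARγ to clear surfactant lipid, and in mice carry Marco, Chil3, Ear2, Siglecf and Plet1. Interstitial and monocyte-derived macrophages sit in the tissue or arrive from blood, and carry C1q, Apoe, Cx3cr1 and MHC class II. Marco is a scavenger receptor, Mrc1 the mannose receptor, and Chil3 a secreted chitinase-like protein. C1qa, C1qb and C1qc form C1q, a part of the first component of complement. Spp1 (osteopontin) is a secreted matrix protein that macrophages make in injured and scarring lung.

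The promoters of the genes that chose the cells, and of Chil3 and Spp1, on which the results turn, are shown because macrophage genes are commonly controlled by PU.1, a factor that binds GAGGAA. Each sequence below is the 250 bases before the RefSeq start of the gene, on the gene's own strand and from 5′ to 3′, in GRCm38.p6, and capitals mark GAGGAA or its reverse complement TTCCTC. Of 6 genes looked up, 5 matched by symbol. Spp1 has a second start in the table, and the first is shown.
C1qb promoter, chr4:136886201-136886450, minus strand: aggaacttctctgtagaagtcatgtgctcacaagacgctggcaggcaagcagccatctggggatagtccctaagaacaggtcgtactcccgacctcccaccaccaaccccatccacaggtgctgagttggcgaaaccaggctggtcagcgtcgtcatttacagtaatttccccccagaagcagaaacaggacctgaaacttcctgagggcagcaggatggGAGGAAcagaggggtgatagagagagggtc
C1qc promoter, chr4:136892915-136893164, minus strand: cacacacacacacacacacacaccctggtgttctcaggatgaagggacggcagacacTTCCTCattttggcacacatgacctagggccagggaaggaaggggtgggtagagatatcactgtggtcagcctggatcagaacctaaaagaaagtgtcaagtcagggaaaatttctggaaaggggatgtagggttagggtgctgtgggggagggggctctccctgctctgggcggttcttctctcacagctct
Marco promoter, chr1:120505025-120505274, minus strand: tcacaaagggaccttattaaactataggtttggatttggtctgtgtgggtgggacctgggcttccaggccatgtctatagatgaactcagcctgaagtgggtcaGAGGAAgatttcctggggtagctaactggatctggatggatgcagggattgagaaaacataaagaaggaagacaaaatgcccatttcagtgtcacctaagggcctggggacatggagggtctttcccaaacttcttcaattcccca
Chil3 promoter, chr3:106167565-106167814, minus strand: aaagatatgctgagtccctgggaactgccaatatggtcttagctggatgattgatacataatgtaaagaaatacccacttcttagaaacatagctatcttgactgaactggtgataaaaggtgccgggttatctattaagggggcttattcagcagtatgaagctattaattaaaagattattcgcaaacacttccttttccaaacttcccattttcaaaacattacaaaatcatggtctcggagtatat
Spp1 promoter, chr5:104434861-104435110, plus strand: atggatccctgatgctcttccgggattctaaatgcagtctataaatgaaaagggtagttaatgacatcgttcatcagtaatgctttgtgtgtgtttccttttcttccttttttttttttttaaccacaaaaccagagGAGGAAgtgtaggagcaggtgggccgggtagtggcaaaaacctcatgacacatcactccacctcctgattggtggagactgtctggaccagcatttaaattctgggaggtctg

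GAGGAA or TTCCTC stood once in each of the windows of C1qb, C1qc, Marco and Spp1 and not in that of Chil3. Over the whole table, 7639 of 32851 windows of this length (23.3%) held it, so a match is common and is a description of the letters only. In GRCm38 the genes themselves lie at chr4:136880129-136886187 (C1qb), chr4:136889804-136893065 (C1qc), chr4:136895917-136898803 (C1qa), chr1:120474538-120505024 (Marco), chr2:14229392-14332057 (Mrc1), chr3:106147554-106167564 (Chil3) and chr5:104435118-104441050 (Spp1), all protein-coding. The 3 C1q genes are neighbours on chromosome 4.

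The libraries held 2111, 2252, 3344 and 2370 cells and 9868802, 11233796, 17828596 and 24897537 UMIs. Cells of null PNX were read more deeply (median 9705.5 UMIs) than those of the other libraries (4503 to 4844.5). AT2-like epithelial cells (Sftpc at least 4% of UMIs) were 54.8% of null PNX cells and 66.3% to 85.5% of the others. Cdc42 stood at 239, 254, 301 and 432 CPM over whole libraries and at 797, 730, 617 and 742 CPM in the macrophages. Its ratio in macrophages was 0.775 (0.538 to 1.12) for null sham over control sham and 1.20 (0.931 to 1.57) for null PNX over null sham. Both intervals spanned 1, and the first reached down to 0.538, so a partial loss cannot be told from none at this depth. The 3′ counts do not show whether the deleted part was read. Xist was at 0.507 to 1.51 CPM and the Y-linked Ddx3y at 30.3 to 36.2 CPM in every library. Of all barcodes, 54 occurred in more than 1 library, and 1 of them was a macrophage.

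The macrophages were most frequent in null PNX. The gate found 13, 7, 18 and 59 cells, which were 0.616% (0.328 to 1.05), 0.311% (0.125 to 0.639), 0.538% (0.319 to 0.849) and 2.49% (1.90 to 3.20) of the library. The null PNX interval lay above the other 3, whose intervals overlapped. The share was 4.63 times that of null sham (2.69 to 8.33) and 8.01 times that of control PNX (3.65 to 20.8). Control PNX over control sham gave 0.505 (0.171 to 1.36) and null sham over control sham 0.874 (0.405 to 1.94), both intervals spanning 1. The share of AT2-like cells was lowest in null PNX, and its part in the macrophage share was not tested.

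The neighbouring mononuclear classes did not follow the same order. Non-classical monocytes (at least 3 UMIs of Adgre4, Treml4 and Cd300e) were 22, 12, 46 and 17 cells, and their share in null PNX was 0.521 times that in null sham (0.280 to 0.927). Conventional dendritic cells were 13, 26, 20 and 15 cells, with a ratio of 1.06 (0.504 to 2.17), and lymphocytes were 116, 67, 189 and 119 cells, with a ratio of 0.888 (0.700 to 1.12). Macrophages were thus 27.1%, 15.6%, 21.4% and 64.8% of macrophages, monocytes and dendritic cells together. The alveolar class had 10 cells in null sham and 30 in null PNX (share ratio 4.23, 2.01 to 9.71), and the C1q-only class 8 and 29 (5.12, 2.28 to 13).

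**Figure D1:**
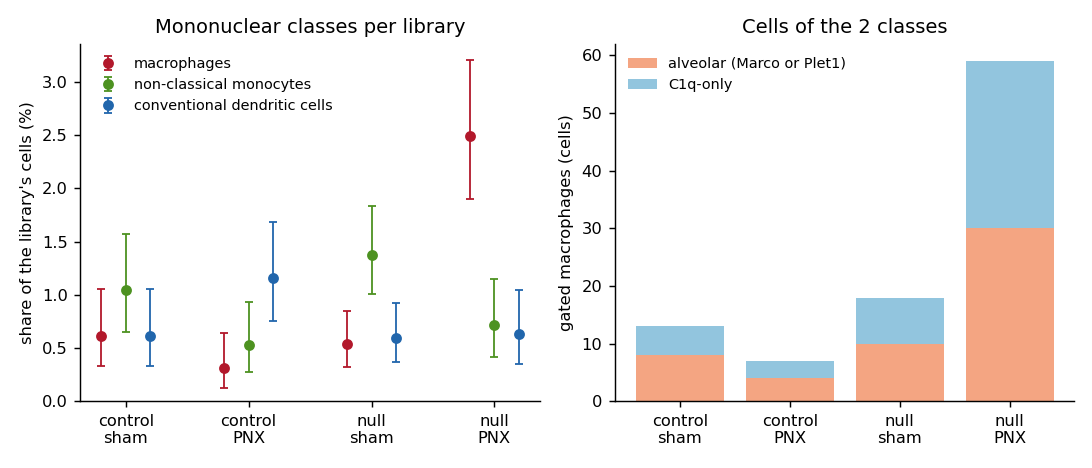
Left, the share of each library's cells (%) in the macrophage, non-classical monocyte and dendritic classes, with exact 95% binomial intervals as bars. Right, the number of alveolar and C1q-only macrophages per library. Null PNX stands apart for macrophages, at 2.49% of cells, and both of its classes are the largest, with 30 and 29 cells.

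Alveolar cells were 8 of 13, 4 of 7, 10 of 18 and 30 of 59, or 61.5%, 57.1%, 55.6% and 50.9%, with intervals that all overlap. The call needs only 1 UMI of Marco or Plet1 and so depends on depth. After each cell was thinned to 1500 UMIs, 9, 4, 11 and 38 cells passed the gate and 44.4%, 25%, 45.5% and 26.3% of them were alveolar. The macrophages had medians of 4497, 2583, 4479.5 and 6412 UMIs and summed to 67772, 20539, 118249 and 461009 UMIs, so control PNX values rest on few molecules, and 3 counts there, the floor used for a gene at 0, stand for 146 CPM.

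The cells just inside and just outside the gate were few. At a gate sum of 3 or 4 UMIs there were 23 of the 97 cells, and 27 further cells failed only with a sum of 2. One cell inside had Sftpc at 2% to 4% of its UMIs, 5 cells failed only by Sftpc of at least 4%, and the median Sftpc share inside was 0.527%. Marco was seen in 34 cells, Plet1 in 47 and both in 29. Of the gate genes, C1qa stood at 2376, 4820, 2131 and 3299 CPM, Mrc1 at 472, 1120, 347 and 176 CPM and Marco at 280, 0, 178 and 247 CPM.

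The label of macrophages was checked against Chil3, which is outside the gate, and against wider marker lists that hold some of the gate genes. All 12 general macrophage markers, which include C1qa, C1qb, C1qc and Mrc1 of the gate, were detected in every library, with a summed level of 17220, 31501, 36618 and 47836 CPM. Chil3 was found in 46 of 52 alveolar cells and 8 of 45 C1q-only cells, at 7374, 8212, 10185 and 2038 CPM in alveolar cells and 0, 0, 35.4 and 83.6 CPM in C1q-only cells. The alveolar class carried 14 alveolar-macrophage markers at a summed 20718, 34233, 23694 and 9643 CPM, against 105, 0, 354 and 676 CPM in the C1q-only class. The C1q-only class carried 13 interstitial markers at 15921, 41122, 21033 and 31762 CPM, against 332, 427, 270 and 3534 CPM in the alveolar class. Marco and Plet1, the genes of the split, are among the alveolar markers, so part of that contrast is set by the split. C1qa, C1qb and C1qc of the gate are among the interstitial markers. A cell without Marco can pass the gate only by these or Mrc1, so much of the interstitial contrast was set in advance.

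A few gated cells went against the label. In 1 C1q-only cell of null sham, the deepest there at 16735 UMIs, fibroblast and pericyte markers held 204 UMIs (104 of them Mgp) and the gate sum was 4 with no C1qa. In 2 alveolar cells of null PNX, of 28388 and 12715 UMIs, the epithelial genes Krt8, Krt18, Cldn4, Sfn and Clu held 702 and 316 UMIs, with a gate sum of 3 and no Chil3. None of the 3 had a UMI of Ptprc, the pan-leukocyte CD45. They held 14.2% of the null sham and 8.92% of the null PNX macrophage UMIs, and results that rest on them are given with and without them. The deepest alveolar cell of control sham, 13971 of 67772 UMIs, held 5 of 6 Cd209a and all 156 Ccl17 UMIs of that library's macrophages, which are dendritic cell genes, and no Marco or Chil3.

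Markers of other leukocytes were at different levels. The 9 T cell markers measured summed to 29.5, 48.7, 16.9 and 23.9 CPM, the B cell markers to 0, 48.7, 8.46 and 23.9 CPM, and red cell genes were at 0 throughout. The 14 conventional dendritic markers summed to 2818, 292, 389 and 451 CPM with 6, 2, 6 and 6 of them detected, highest in control sham, where Ccl17 of the single cell described above gave 2302 CPM. Xcr1 and Clec9a of that list were at 0 in all 4 libraries, and 3 gated cells held at least 3 UMIs of dendritic gate genes. AT2 markers, Cd74 among them, summed to 63271, 29213, 34258 and 21275 CPM with 14, 12, 14 and 14 of 14 detected. Their part in the results was not tested.

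Alveolar and C1q-only macrophages were compared within libraries with edgeR's quasi-likelihood test, with the library as a block and the genes of the gate and the split left out. Of 504 genes tested over the 4 libraries, 28 were higher in alveolar cells (5.56%) and 38 were higher in C1q-only cells, that is lower in alveolar cells (7.54%), at an adjusted p of at most 0.05 and at least 2-fold. Control PNX entered with 4 and 3 cells and control sham with 8 and 5, so null PNX and null sham carry most of the counts. The calls leaned most on control sham, without which 10 genes passed. Without null sham 32 passed, without null PNX 78 and without control PNX 91. Only null PNX had at least 10 cells of each class. There, with counting intervals and no test, 156 of 1943 genes were higher (8.03%) and 193 lower (9.93%) in alveolar cells.

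Genes higher in alveolar cells were led by secreted products. Chil3 was 6.32 ± 0.65 higher on the log2 scale (SE, edgeR adjusted p = 0.00094, same sign in 4 of 4 libraries). The eosinophil-associated ribonucleases Ear1, Ear2 and Ear10 were higher by 5.6 ± 0.62, 5.42 ± 0.62 and 5.76 ± 0.58. Ear2 stood at 5333, 12051, 5182 and 2614 CPM in alveolar cells and at 0, 0, 58.9 and 178 CPM in C1q-only cells, so the summed levels of the classes did not overlap. Single cells did, since 25 of 30 null PNX alveolar cells held an Ear2 UMI and 1 C1q-only cell reached 8274 CPM. Wfdc21, an antimicrobial-type secreted protein, the hyaluronan receptor Cd44 and the cytokine Il18 were higher by 4.63 ± 0.49, 2.85 ± 0.44 and 3.17 ± 0.52, and so were Ccl6, Tnfaip2, Txn1 and Tmsb10.

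Krt19 was also higher, by 3.94 ± 0.42, but 315 of its UMIs lay in the 2 keratin-rich cells of null PNX. Without those cells and the stromal one it missed the threshold (log2 2.3, edgeR adjusted p = 0.0506). That setting gave 27 higher and 28 lower of 507 genes, with 24 of the 28 and 24 of the 38 main calls kept. Of the 9 tested genes of the alveolar macrophage identity list, 8 rose in the alveolar class: Chil3, Lpl, Ear1, Ear2, Il18, Ccl6, Krt19 and Abcg1. The list's median was 3.66 on the log2 scale against 0.06 for all genes tested. Lpl (lipoprotein lipase) and Abcg1 (a cholesterol exporter) are part of lipid clearance.

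Apoe led the genes higher in C1q-only cells. This lipid carrier stood at 2694, 15678, 9969 and 16381 CPM there and at 332, 213, 29.95 and 457 CPM in alveolar cells, lower in alveolar cells by 5.25 ± 0.62 on the log2 scale (log2 fold -5.25, edgeR adjusted p = 0.0011). The LPS co-receptor Cd14 (-3.05 ± 0.46), the lysosomal protease Lgmn (-2.51 ± 0.36) and Tmem176b (-2.46 ± 0.44) followed. Fos (-1.68 ± 0.25), Junb and Dusp1, induced within minutes of stimulation or tissue digestion, were on the same side.

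By list, 8 of 11 tested interstitial macrophage genes were lower in alveolar cells (median log2 -1.86), 5 of 6 MHC class II genes (-2.46), 3 of 5 scavenger receptor genes, 3 of 17 lysosome genes (Ctsb and Lgmn among them) and 4 of 13 immediate-early and heat-shock genes (Ier2, Junb, Fos and Dusp1). Among lipid-handling genes the classes divided, with Lpl and Abcg1 higher and Pltp and Apoe lower in alveolar cells, of 7 tested. Cells of 1 library share their source, and the lists overlap with the markers that define the classes.

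**Figure D2:**
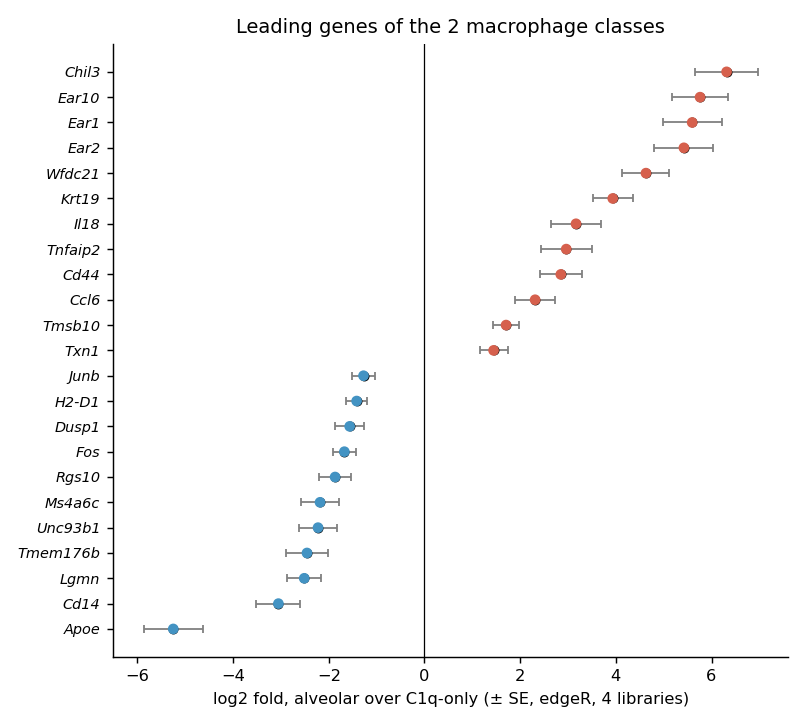
Log2 fold of the leading genes in alveolar over C1q-only macrophages (x axis, edgeR estimate over 4 libraries, bars ± SE), one gene a row. Chil3 at 6.32 and the Ear genes above 5 lie at the alveolar end and Apoe at -5.25 at the C1q-only end; Krt19 misses the threshold without the stromal and keratin-rich cells.

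Spp1 was high in null PNX. In summed macrophages it stood at 885, 828, 254 and 10915 CPM, lowest in null sham and similar in both control libraries. The ratio was 43.0 (30.1 to 63.8) for null PNX over null sham and 13.2 (8.23 to 22.7) for null PNX over control PNX, while control PNX over control sham was 0.935 (0.511 to 1.62). One null PNX cell held 32% of the library's macrophage Spp1. Without the top cell of each library the levels were 808, 399, 122 and 7711 CPM, in the same order of null PNX over the rest.

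The high level of null PNX was spread over many of its cells and both classes. Spp1 was above 1000 CPM in 8 of 13, 3 of 7, 3 of 18 and 44 of 59 macrophages and above 10000 CPM in 0, 0, 0 and 13. In alveolar cells, the per-cell median was 1320, 1563, 478 and 4853 CPM, with null PNX cells ranging from 0 to 27064 CPM. Alveolar Spp1 summed to 1148, 1813, 899 and 6088 CPM, 6.78 times higher in null PNX than in null sham (4.72 to 10.1).

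In C1q-only cells the contrast was wider. Spp1 stood at 525, 0, 0 and 14178 CPM (8882 CPM without the top cell), and 4 of 5, 0 of 3, 0 of 8 and 25 of 29 cells held a UMI. With 3 counts taken for the 0 of null sham, the null PNX level was 401-fold higher, and against control PNX 52.8-fold higher. The lower 95% bound of the ratio was 262 to null sham without its stromal cell, and 42.9 to control PNX. Over all macrophages without the stromal and keratin-rich cells, the Spp1 ratio to null sham was 40.5 (28.4 to 60.2). Spp1 was at 27.0 CPM in null PNX lymphocytes and at 25.2 CPM in its epithelial cells, and macrophages, 2.49% of the cells, held 5032 of the 6936 Spp1 UMIs of that library (72.6%).

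**Figure D3:**
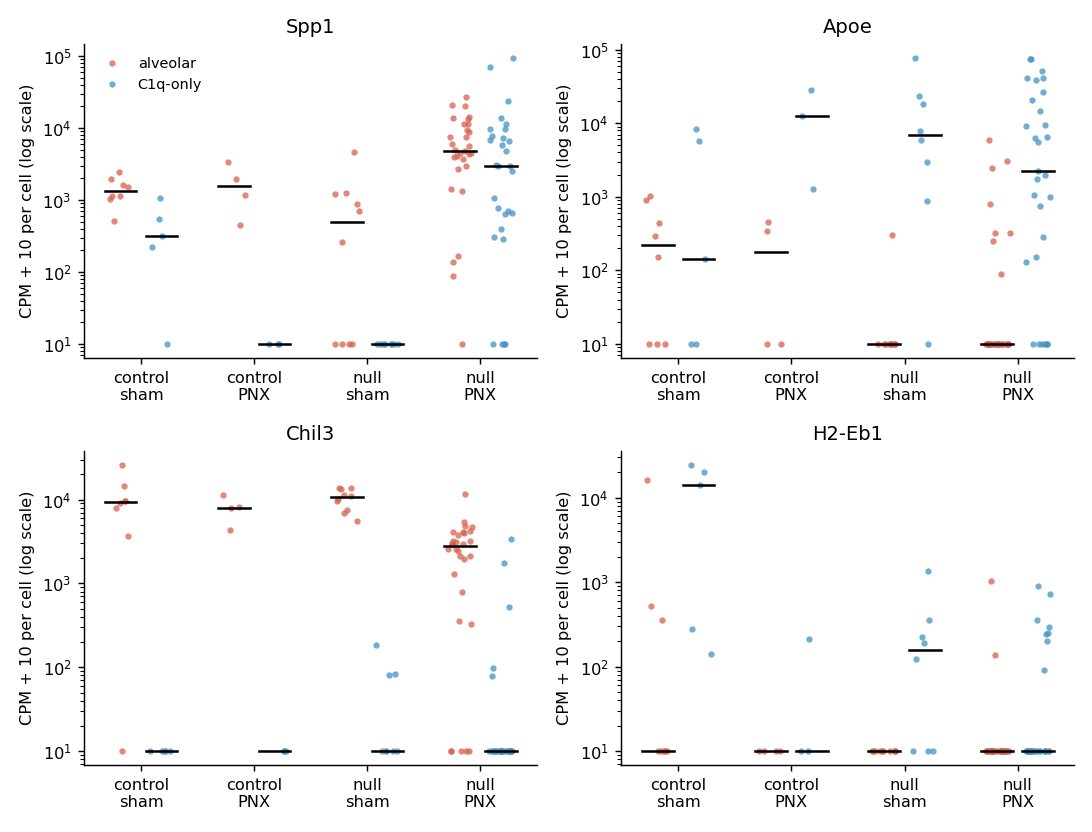
CPM of Spp1, Apoe, Chil3 and H2-Eb1 in each macrophage (y axis, CPM + 10, log scale) by library, alveolar and C1q-only cells in different colours, 1 point a cell. Spp1 is above 10000 CPM in 13 cells, all in null PNX; Chil3 sits mainly in alveolar cells and Apoe in C1q-only cells.

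Across all genes, null PNX over null sham compared 2382 genes, of which 252 were higher (10.6%) and 159 lower (6.68%). With the trimmed-mean scaling of edgeR (TMM), 375 were higher and 111 lower and the median log2 ratio moved from 0.12 to 0.32, so ratios read against that median. Without the stromal and keratin-rich cells, 190 were higher and 142 lower, with 166 and 120 of the main calls kept. After thinning to 1500 UMIs 58 genes were called. All 10 named higher genes lay on the same side in C1q-only cells and 6 of the 10 in alveolar cells.

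Ctss, Cd63, Cstb and Clec4n were among the named genes higher in null PNX. Ctss, the protease that trims the invariant chain, stood at 3010, 2288, 1683 and 5692 CPM, 3.38 times null sham (2.93 to 3.93). In lymphocytes it was near 1 (1.19, 0.884 to 1.61). Cd63, a lysosomal tetraspanin, stood at 148, 876, 288 and 1850 CPM (6.44, 4.57 to 9.35), and it was also higher in null PNX lymphocytes (4.15, 3.06 to 5.70). Cstb, a cathepsin inhibitor, was 3.87 times higher (2.92 to 5.22), and Clec4n, the fungal lectin dectin-2, 6.35 times (3.92 to 11).

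Inflammation and stress genes were among them. Il1b, the fever cytokine, stood at 443, 146, 16.9 and 328 CPM, so that null sham was low and null PNX did not exceed control sham; the ratio was 19.4 (5.27 to 161). Cx3cr1, the fractalkine receptor, stood at 162, 97.4, 8.46 and 141 CPM (16.7, 2.89 to 669), again with null sham low. Cdkn1a, the cell-cycle inhibitor p21, was 7.10 times higher (3.19 to 19.6) and Tspo and Lgals1 3.92 and 3.57 times, with intervals of 2.88 to 5.47 and 2.85 to 4.52. Without the stromal and keratin-rich cells Cdkn1a stood at 266, 195, 49.25 and 300 CPM, again with null sham low. The Cdkn1a ratio of null PNX over control PNX was then 1.54 (0.587 to 5.74), an interval that spans 1. Ass1, an arginine-cycle enzyme, was at 115 CPM against 0 in the other libraries, 4.53-fold above null sham with 3 counts taken for the 0. Cdkn1a was higher in null PNX epithelial cells too, at 241 CPM against 48 to 125.

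Named lower genes were ribosomal products and a few identity genes. Of 91 ribosomal protein symbols 18 were lower and 1 higher, and of 20 Gm-numbered symbols 11 were lower and none higher. Whether any of these share reads with parent genes was not examined. For 6 of the 10 named lower genes the lymphocytes of the same libraries lay on the same side, and for Ccnd2 on the other. Ccnd2 (cyclin D2, 0.160, 0.087 to 0.289), the adhesion receptor Adgre5 (0.140, 0.063 to 0.295) and the transcription co-factor Lmo4 (0.239, 0.153 to 0.373) were lower as well.

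**Figure D4:**
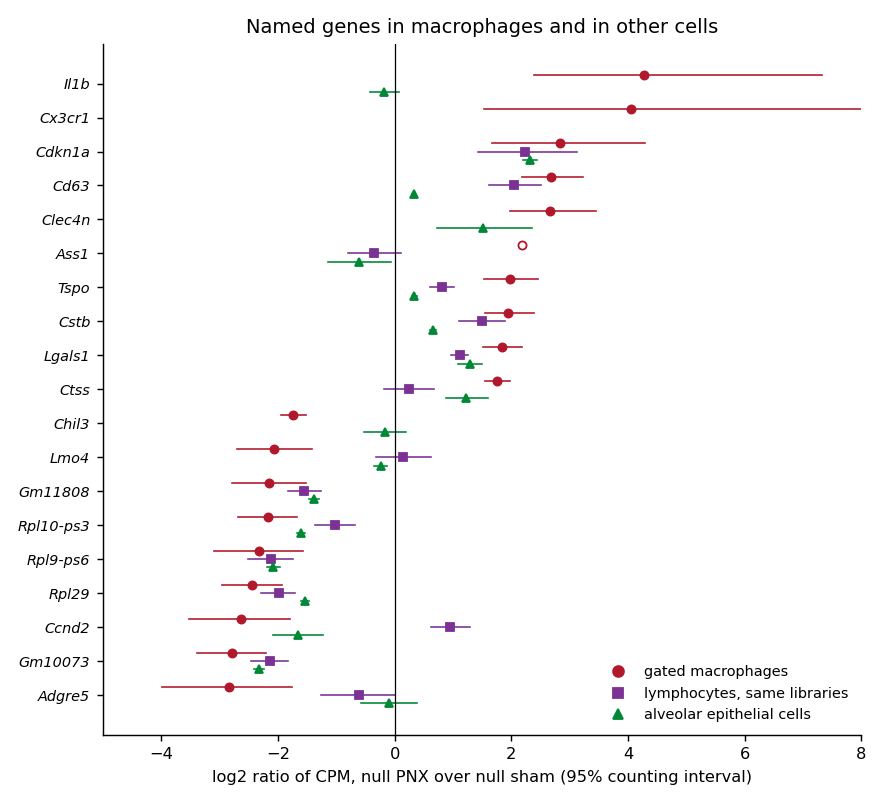
Log2 ratio of CPM, null PNX over null sham (x axis, bars 95% counting intervals), for most of the named genes in macrophages, lymphocytes and epithelial cells. Genes with too few UMIs in a class are left out for it. The open circle of Ass1 takes 3 counts for the 0 of null sham, and the interval of Cx3cr1 runs past the axis. Ribosomal genes such as Rpl29 lie left of 0 in lymphocytes as in macrophages, whereas Ctss lies near 0 in lymphocytes and at a ratio of 3.38 in macrophages.

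Chil3 was lower in null PNX. It stood at 4264, 3749, 2901 and 872 CPM in all macrophages, 0.301 times null sham (0.260 to 0.348) and 0.233 times control PNX (0.182 to 0.301). Within alveolar cells the levels were 7374, 8212, 10185 and 2038 CPM, with a ratio to null sham of 0.2 (0.172 to 0.232), so the lower level was present within the alveolar class as gated. In null PNX 5 cells of this class held at least 3 C1q UMIs, against 0 in each other library. Cells with a single UMI of Marco or Plet1 numbered 0, 2, 0 and 6. The part of these cells in the Chil3 level was not tested. The per-cell medians of alveolar cells were 9326, 7994, 10708 and 2753 CPM, and 25 of 30 null PNX cells held a UMI. Without the 2 keratin-rich cells the alveolar level was 2617 CPM.

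Other alveolar identity genes differed in both directions in alveolar cells. Of 20 measured list members, 8 were lower in null PNX than in null sham (Chil3, Ear1, Fabp1, Krt79, Atp6v0d2, Abcg1, Ccl6 and Tcf7l2) and 3 higher (Fabp4, Krt19 and Spp1), with a median log2 ratio of -0.75. Over all 1014 genes tested in alveolar cells, 7.1% were lower and 10.9% higher, with a median of -0.01. Without the 2 keratin-rich cells 5 of the 20 were lower and 2 higher, and Krt19 turned from higher to lower in null PNX (0.417, 0.253 to 0.701). Ear2 stood at 5333, 12051, 5182 and 2614 CPM, highest in control PNX. Fabp1 stood at 1199, 320, 809 and 151 CPM and Krt79 at 281, 640, 689 and 161 CPM. The fatty acid carrier Fabp4 was at 332, 0, 59.9 and 339 CPM, level in control sham and null PNX.

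Of 18 measured growth factor and matrix genes, 10 were higher in null PNX than in null sham (Igf1, Tgfbi, Areg, Osm, Spp1, Gpnmb, Mmp14, Mmp19, Timp1 and Anpep) and Thbs1 was lower, with a median log2 of 1.66 against 0.12 for all genes, and the same counts under TMM. Without the stromal and keratin-rich cells 7 of 16 were higher and 1 lower, and the loss was of Areg, Gpnmb and Mmp14. In lymphocytes of the same libraries 7 of 8 were higher and 0 lower, with a median log2 of 1.72, where 15.1% of 4175 genes were higher, 3.38% lower and the median was 0.36. The higher level of this list was thus not limited to macrophages. Tgfbi, a matrix protein, stood at 236, 730, 245 and 748 CPM, high after PNX in both genotypes. The cytokine Osm stood at 0, 48.7, 33.8 and 137 CPM, the growth factor Igf1 at 0, 0, 16.9 and 73.8 CPM and the protease inhibitor Timp1 at 0, 0, 16.9 and 75.9 CPM.

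Areg, the EGF receptor ligand amphiregulin, was at 0, 0, 25.4 and 148 CPM in gated macrophages, but 32 of its null PNX UMIs lay in the 2 keratin-rich cells. Without them the ratio to null sham was 2.90 with an interval of 0.917 to 14.7, which spans 1. Null PNX macrophages held 0.478% of that library's Areg, and its epithelial cells stood at 421 CPM. Fn1 (fibronectin) stood at 0, 0, 2089 and 1176 CPM, present in both null libraries and not detected in the control ones. In null sham it came from few cells, and the level was 1209 CPM without the top one.

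Macrophages held a large share of the library's transcripts for some of these genes. In null PNX they held 72.1% of Arg1, 61.5% of Apoe, 55.4% of Trem2, 53.1% of Igf1, 24.8% of Osm and 24.5% of Fn1. In the other libraries the Apoe share was 1.04%, 2.94% and 12.6%. Arg1, Igf1 and Osm shares were also highest in null PNX. Those of Fn1 and Trem2 were not, with Fn1 at 44.8% in null sham and Trem2 at 85.7% (6 of 7 UMIs) in control PNX. Lyz2, which AT2 cells also express, had 0.205%, 0.168%, 0.848% and 3.51% of its UMIs in macrophages.

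In all macrophages 8 of 22 measured inflammatory cytokine and chemokine genes were higher in null PNX than in null sham (Il1b, Cxcl1, Cxcl2, Cxcl16, Ccl4, Ccl7, Ccl12 and Ccl17) and Saa3 was lower, and in C1q-only cells 9 of 15 were higher and 1 lower. Over all 1556 genes tested in C1q-only cells 14.9% were higher and 7.9% lower. In alveolar cells 2 of 10 genes of the list were higher and 3 lower, or 3 and 1 without the keratin-rich cells. Over all 1014 genes tested there 10.9% were higher and 7.1% lower, and no test compared the classes. The neutrophil chemokine Cxcl2 stood at 2379, 448, 566 and 2458 CPM in C1q-only cells and at 434, 853, 1378 and 446 CPM in alveolar cells, so the classes ran in opposite order between null sham and null PNX. Without the top C1q-only cell of each library the C1q-only levels were 502, 0, 414 and 2181 CPM, so the control sham value rests mostly on 1 cell. The Ccl17 call rests on 1 cell, which held 90% of it in null PNX.

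Scavenger and phagocytic receptors had 6 of 18 higher (Clec4n, Clec4a2, Clec4a3, Trem2, Tlr2 and Cd14) and Cd36 lower in all macrophages, 8 of 16 higher and 0 lower in C1q-only cells, and 2 of 10 higher and 1 lower in alveolar cells. Over all genes tested, 10.6% were higher and 6.68% lower in all macrophages. The same shares were 14.9% and 7.9% in C1q-only cells and 10.9% and 7.1% in alveolar cells. For so few genes the alveolar receptor counts are close to these shares. Trem2, a lipid receptor, stood at 44.3, 292, 110 and 447 CPM, 4.07 times null sham (2.33 to 7.76), with intervals spanning 1 against control PNX (1.53, 0.691 to 4.22). Lysosome genes had 7 of 23 higher (Ctsd, Ctss, Ctsl, Cd63, Lgmn, Gpnmb and Lgals3) and Cst3 lower, and under TMM 13 higher and 0 lower. Without the stromal and keratin-rich cells 5 of 23 were higher and 0 lower, and Ctsd, Gpnmb and Lgals3 were no longer called. More lysosome genes were higher than lower in both classes, with 12 higher and 1 lower of 21 in C1q-only cells and 5 and 1 of 21 in alveolar cells. In lymphocytes 7 of 18 were higher (median log2 0.86 against 0.85 in macrophages), where 15.1% of all genes tested were higher. The ferritin chain Fth1 stood at 9104, 15093, 10520 and 25466 CPM (2.42, 2.28 to 2.57).

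Alternative activation genes were divided. Arg1, the arginase, stood at 0, 0, 8.46 and 542 CPM, in 9 of 59 null PNX cells with 43.6% in 1 of them, and was at 318 CPM without that cell. Its ratio to null sham was 64.1 with an interval of 11.4 to 2543. Retnla stood at 29.5, 0, 1294 and 39.0 CPM, with 78% of the null sham value in 1 cell, and Mgl2 at 1328, 146, 372 and 36.9 CPM. Against null sham, null PNX was above for 2 and below for 3 of the 7 measured members.

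MHC class II genes were highest in control sham. Cd74, the invariant chain, stood at 49224, 19232, 20499 and 10403 CPM, H2-Aa at 17913, 10225, 8668 and 4625 CPM and H2-Ab1 at 14239, 6037, 6343 and 3983 CPM. In C1q-only cells Cd74 stood at 79429, 35298, 28481 and 13625 CPM. In alveolar cells 99.4% of the control sham Cd74 and 72% of the null PNX Cd74 lay in 1 cell. Of 7 measured genes, 6 were lower in null sham than in control sham (5 under TMM), 6 in control PNX than in control sham (7 under TMM) and 2 in null PNX than in null sham.

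H2-Eb1, another class II chain, differed far more and in all cells. It stood at 7451, 48.7, 118 and 71.6 CPM in macrophages, at 401, 18.8, 20.3 and 21.2 CPM in lymphocytes and at 608, 33.7, 19.4 and 24.8 CPM over whole libraries. Control sham was thus the single high library in each of the 3 sets of cells. Gm10116 also had a single high library, at 5946, 487, 457 and 571 CPM in macrophages and 1777, 132, 220 and 103 CPM in epithelial cells.

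A small set of C1q-only cells of null PNX carried cell-cycle genes. Summed over 11 mitotic genes such as Mki67, Top2a and Birc5, 0, 0, 0 and 5 macrophages held at least 5 UMIs, all 5 of them C1q-only, and 1, 0, 1 and 22 held at least 1. The UMIs were 1, 0, 2 and 243, of which 119 lay in 1 cell. Birc5, a mitotic survival gene, stood at 0, 0, 0 and 99.8 CPM. Null PNX has the most and the deepest macrophages, and 0 of 13, 7 and 18 cells elsewhere allows shares of up to 23.1%, 42.9% and 16.7%.

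**Figure D5:**
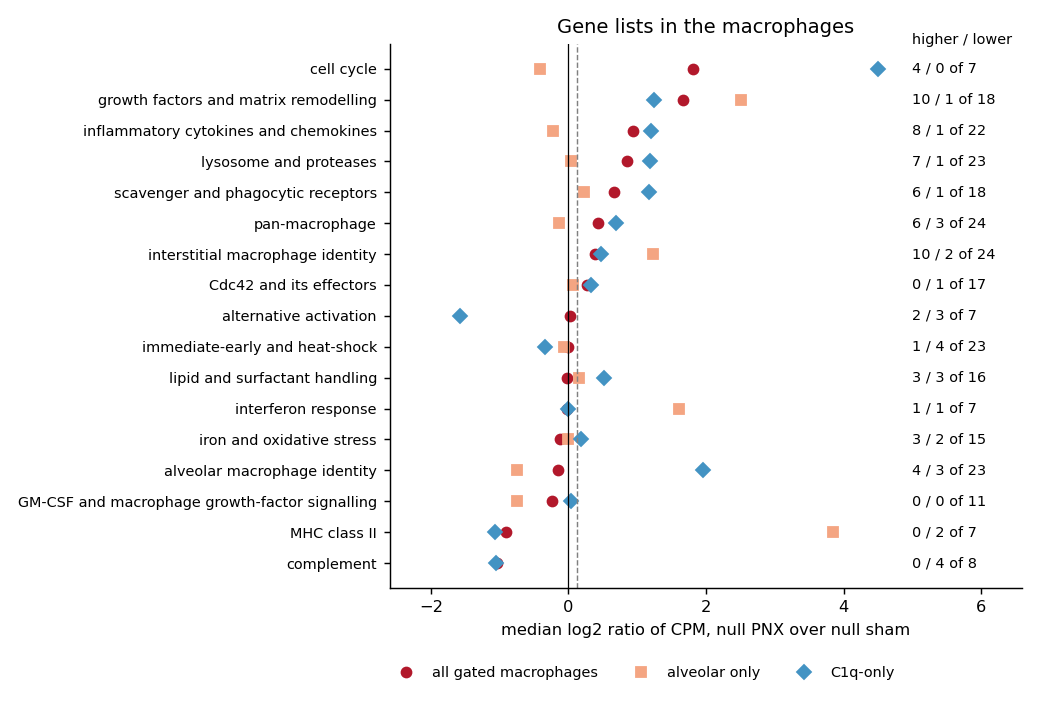
Median log2 ratio of CPM, null PNX over null sham (x axis), for each gene list in all macrophages, alveolar cells and C1q-only cells; the dashed line is the median of all genes tested, 0.12, and the numbers at the right are the higher and lower genes of those measured in all macrophages. Growth factor and matrix genes (1.66) and inflammatory genes (0.94) lie to the right, and complement (-1.04) and MHC class II genes (-0.91) to the left; the MHC class II point of alveolar cells rests mostly on 1 cell.

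Null PNX and control PNX were compared over 2017 genes, and null PNX was the higher of the pair for 84 (4.16%) and the lower for 91 (4.51%). Under TMM 372 were higher and 22 lower, and the median log2 ratio moved from -0.02 to 0.79, so the balance between directions depends on the scaling. This comparison and the one above share null PNX. Control PNX had 7 cells. Fn1 stood at 1176 CPM in null PNX against 0 CPM in control PNX, and Eno1, the glycolytic enolase, at 677 against 0 CPM. With 3 counts taken for the 0 of control PNX, Fn1 was 8.05-fold and Eno1 4.63-fold higher. These folds are not lower bounds.

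Among the other named higher genes were Wfdc17, a secreted whey acidic protein family member (635, 195, 1624 and 2319 CPM; 11.9, 4.64 to 43.8), and Fabp5, a fatty acid carrier (9.80, 3.34 to 47.7). Ctsd (2.81, 1.88 to 4.41), Ctss (2.49, 1.87 to 3.39) and Gapdh (4.53, 2.19 to 11.3) were higher too. Of the 10 named higher genes 3 lay on the same side in lymphocytes and 9 in epithelial cells, and of the 10 lower ones, mainly ribosomal, 8 did so in lymphocytes. Ear2 was lower, at 0.211 (0.172 to 0.261), and Pf4, a platelet-type chemokine of tissue macrophages, stood at 44.3, 2240, 1497 and 75.9 CPM.

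By list, growth factor and matrix genes had 2 higher (Fn1 and Spp1) and 0 lower of 17. Their median log2 was 1.53, but 0.006 with 3 counts taken for a gene at 0, so it rests on genes not detected in control PNX. Alveolar identity had 2 higher and 6 lower of 20 (7 and 4 under TMM), and interstitial identity 3 higher and 6 lower of 24 (7 and 3 under TMM), so both lists turn with the scaling. Lysosome genes had 6 higher and 0 lower of 23.

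Null sham over control sham compared 821 genes, of which 62 were higher (7.55%) and 53 lower (6.46%), or 76 and 43 under TMM. Over all macrophages Spp1 was at 0.287 times control sham (0.178 to 0.451), Lpl at 0.282 (0.177 to 0.440), Ear2 at 0.488 (0.397 to 0.599), Clec4n at 0.250 (0.133 to 0.452) and the phagocytosis checkpoint receptor Sirpa at 0.395. Of 14 measured alveolar identity genes 7 were lower and 0 higher (Ear1, Ear2, Fabp1, Car4, Lpl, Abcg1 and Spp1). Within the alveolar class 0 of 13 were lower and 3 higher (Krt79, Krt19 and Ccl6), with a median log2 of -0.04, where 6.27% of 351 genes were lower and 7.12% higher. Alveolar cells gave 57.8% of the macrophage UMIs of control sham and 28.2% of those of null sham, beside the all-macrophage count.

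Within alveolar cells Spp1 was at 1148 and 899 CPM and Ear2 at 5333 and 5182 CPM in control sham and null sham. Without the stromal cell the Ear2 ratio over all macrophages was 0.569, past 2-fold no longer. Genes higher in null sham included Apoe (5.39-fold), Lyz2 (3.72, 3.39 to 4.09), the protease Ctsb (2.04, 1.44 to 2.96) and the small GTPase Rac2 (3.08, 1.43 to 7.59). In alveolar cells alone Apoe ran the other way, at 0.0903.

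Control PNX over control sham compared 416 genes with the fewest UMIs, and 26 were higher (6.25%) and 34 lower (8.17%). Under TMM 8 were higher and 95 lower and the median log2 ratio moved from 0.03 to -0.57. The rule for naming genes was met by 5 higher genes, Ftl1, Rbm3, Rpl36al, Gabarap and Clta, and by 4 lower ones, Gm10116, Pim1, Lpl and Eef1b2. Ftl1, the ferritin light chain, stood at 5341, 16554, 10419 and 24188 CPM (3.1, 2.67 to 3.6), higher after PNX in both genotypes. Apoe was 6.49 times higher (5.01 to 8.46) in all macrophages and 0.643 times in alveolar cells alone. Much of it lay in single cells. Without the top cell of each library Apoe fell from 1328 to 465 CPM in control sham and from 8618 to 3968 CPM in control PNX.

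Macrophages were set against the classes nearest to them in 3 libraries with at least 10 cells of both, with edgeR and the library as a block. Against non-classical monocytes, 114 of 1553 genes were higher (7.34%) and 140 lower (9.01%). Spp1 led, 8.25 ± 0.50 higher on the log2 scale (edgeR adjusted p = 7.22e-08), followed by Ctsd (3.97 ± 0.32, edgeR adjusted p = 2.34e-06) and Lpl (4.49 ± 0.43). Plac8 (-7.61 ± 0.45, edgeR adjusted p = 7.22e-08), Ace (-6.01 ± 0.61) and Ifitm3 (-2.95) led the lower ones, genes known from circulating monocytes. All 7 MHC class II genes tested were higher in macrophages (median log2 2.47 against -0.04 for all genes), as were 10 of 15 alveolar identity genes.

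Against conventional dendritic cells, 181 of 1935 genes were higher (9.35%) and 100 lower (5.17%). Chil3 (9.12 ± 0.39, edgeR adjusted p = 8.1e-06), Ctsd (4.71 ± 0.22), Apoe (7.37 ± 0.47) and Cebpb (4.36) were higher. Irf8, the factor that drives dendritic cell fate, was lower (-3.87 ± 0.24, edgeR adjusted p = 3.73e-05), as were Itgae (-8.54), Btla (-8.04) and the peptide transporter Tap1 (-3.13). Lysosome genes were higher for 16 of 21 tested and alveolar identity genes for 15 of 17. The gate genes of both classes were left out of these tests, but genes that go with them were not, so the contrasts describe the classes and are no test of the gate.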

How the data were processed

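The files were UMI count matrices of 4 single-cell libraries (10x 3′ chemistry) with 17117 genes. Per the submitters' processing notes, the deposited counts were made with Cell Ranger 2.1.0 on mm10, and Seurat 2.3.4 was used, with no cell filter named there. Barcode endings tied cells to libraries. The members and gene lists were chosen with earlier results of these data known.

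Counts were summed per library and class and given as CPM. Pairs of libraries were compared with exact 95% binomial intervals in scipy 1.17.1. Classes were compared with edgeR 4.0.16 in R 4.3.3 (quasi-likelihood test, TMM, library as block, Benjamini-Hochberg adjustment, 0.05 and 2-fold), checked on simulated counts; libraries are the replicates, and the 1-library groups are not. Named genes were the 12 called genes with the lowest p in each direction with the same sign in every library, or, for pairs, the 10 in each direction ranked by the interval bound nearest 1, leaving out gate, split, mitochondrial, haemoglobin and immunoglobulin genes, genes with over 25% of their UMIs in 1 cell and genes higher in epithelial cells. Gate genes, Chil3, Cdc42, sex-linked genes and the 4 members of each of the 17 lists with the most UMIs were also named; any other gene was chosen after its values were seen. The planned alveolar over C1q-only test needed 10 cells of each class and was run over all 4 libraries instead. No doublet caller was run. A separate flag for markers of other cell classes marked 3 gated cells. All 97 cells had at least 500 genes and at most 20% mitochondrial UMIs. Alternatives were other scalings, filters, thinning, DESeq2 1.42.0 and, chosen after seeing the data, leaving out stromal or keratin-rich cells (at least 1% of UMIs). Results for a few genes are not reported here.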

Additional observations from a re-analysis of the deposited data

Results flagged for a closer look

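For 3 genes the ratio of PNX over sham ran in opposite directions in the control and the null macrophages, with both counting intervals leaving out 1. The difference between genotypes was not tested, since each group is 1 library. Fabp5, a fatty acid carrier, stood at 0.202 (0.0403 to 0.626) in control and 3.602 (2.68 to 4.95) in null libraries. Lpl, lipoprotein lipase, stood at 0.3666 in control and 2.623 in null libraries. In alveolar cells without the keratin-rich ones, the Lpl ratios were 0.5225 (0.201 to 1.15) and 1.45 (0.974 to 2.22), both spanning 1. The alveolar intervals of Fabp5 and Cd52 still left out 1, on the same sides. Alveolar cells gave 57.8%, 45.7%, 28.2% and 40.3% of the macrophage UMIs, and the part of this mix was not tested. Cd52, a leukocyte surface peptide, stood at 0.1375 in control and 2.292 in null libraries, and 95% of the control sham alveolar Cd52 lay in 1 cell. The control PNX values of Fabp5 and Cd52 are 3 UMIs each, and that of Lpl is 7 UMIs.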

How the results depend on the processing

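Thinned to 1500 UMIs, null PNX macrophages were 1.603% of cells and 26.32% of them alveolar, and counts of called genes were 11 for control PNX over control sham, 58 for null PNX over null sham, 27 for null sham over control sham, 44 for null PNX over control PNX, and 18 (4 libraries) and 59 (null PNX alone) for alveolar over C1q-only. With cells above the highest library minimum, the control PNX over control sham share ratio was 0.2364 and left out 1. In the same order of pairs, a minimum of 60 UMIs gave 26, 249 and 65 for the first 3, and alveolar cells alone 30, 183, 47 and 93. C1q-only cells gave 35 for the first pair, and TMM gave 103 for it and 394 for the last. For alveolar over C1q-only, edgeR called 170 without a filter, 30 with no library block, 37 without cells of other classes, and 10 to 91 leaving out 1 library (10 without control sham, 32 without null sham). Against monocytes it called 462 without a filter, 157 with no library block and 140 to 336 leaving out 1 library (140 without control sham). Against dendritic cells it called 562 without a filter and 161 to 278 leaving out 1 library (161 without null sham). In alveolar cells alone the direction turned for Apoe (0.643) and Wfdc17 (1.045) in control PNX over control sham, Cxcl2 (0.324) and Pf4 (2.334) in null PNX over null sham, Sirpa (1.112) and Apoe (0.09031) in null sham over control sham, and Cxcl2 (0.5232) in null PNX over control PNX. Chil3 turned in C1q-only cells (2.365, null PNX over null sham) and C1qa without the deepest cells (0.8129, control PNX over control sham). The cause was not tested. Krt19 in alveolar cells turned without the keratin-rich cells (0.417, null PNX over null sham). Of the other values of single genes under alternatives, 1518 kept direction and call, 203 lost the call, 22 gained it, 30 moved and 9 turned. Control PNX, with 20539 macrophage UMIs, limits every comparison it enters.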

Other observations

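Some gene groups differed little between null PNX and null sham macrophages or in the other direction to those above. Complement genes outside the gate were lower for 4 of 8 measured (Cfp, C4b and Itgam among them) and higher for none, and under TMM for 3. Properdin, Cfp, which stabilises the alternative pathway convertase, stood at 266, 243, 947 and 189 CPM, so that null sham was the single high library. Klf2, a transcription factor of quiescent myeloid cells, stood at 59.0, 97.4, 753 and 204 CPM, again highest in null sham. Among the receptors and factors of GM-CSF and CSF1 signalling none of 11 was called in either direction, with Csf1r at 531, 584, 347 and 289 CPM and Spi1, which encodes PU.1, at 0.884 times null sham (0.630 to 1.26).

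Of 17 measured genes of Cdc42 and its effectors, 1 was lower (Cdc42ep3) and none higher in null PNX than in null sham, and none was called under TMM. Interferon response genes had 1 higher (Bst2) and 1 lower (Ifitm3) of 7.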
